A study of Mus musculus with 41 samples.

Results

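The 46 genes described here carry out DNA replication and mitosis. They were taken by symbol from a list of S phase and mitosis genes, and all 46 were found among the 50763 genes of the count table. The list holds 8 genes that license replication origins or form the MCM helicase, 6 that act in nucleotide supply and at the replication fork, and 6 that encode cyclins or Cdk1. It also holds 4 transcription factors, 8 mitotic kinases and checkpoint genes, 3 centromere genes, 6 spindle genes, 4 genes of mitotic chromosome structure, and Mki67.

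Bulk RNA with poly(A) tails was read from sorted B cell subsets of the mouse spleen, to ask what loss of Mek1 and Mek2 function changes in each. Mice were 3 to 5 months old. The genotype labelled 1Mek2 is given as Mek1flox/flox Mek2+/- with the transgene Tg+/Vav1-icre, and the remaining libraries are labelled wild type (wt). Among them, a germinal center library came from an animal whose libraries are named Mek1ff. Vav1-iCre deletes floxed alleles in blood cells of every lineage, so the deletion was not restricted to B cells. No group carried the Cre transgene alone. The sort gates were B220+CD93+CD138- for Immature, GL7+FAS+ for germinal center (GC), CD21+CD23+ for Follicular, CD21+CD23- for MarginalZone and B220+CD138+ for Plasma. The gate of the age-associated B cells (ABC) is not stated in the labels. GC and Follicular cells had 4 libraries labelled 1Mek2 and 4 labelled wt each, and the remaining subsets had 3 and 3. These 40 libraries came from 16 animals, many of which gave several subsets.

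Cells that divide copy their DNA in S phase and separate the copies in mitosis. Genes of the first step are switched on by E2F factors at the end of G1, and genes of the second by the MuvB complex with B-Myb and FoxM1 in G2. Resting B cells of the follicle and marginal zone sit outside the cycle, whereas germinal center B cells are among the fastest dividing cells of the body. ERK, the kinase that MEK1 and MEK2 activate, promotes entry into the cycle through D-type cyclins and Myc. Transcripts of these genes are therefore commonly read as a measure of the share of cycling cells. In bulk RNA a larger share of cycling cells and more of the transcript in each cycling cell cannot be told apart.

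Promoter windows are shown for 6 members to place the S phase genes beside the mitosis genes in DNA sequence. Each runs from 250 bases before to 50 bases after the annotated start, read on the gene's strand from RefSeq's GRCm38.p6 table, an older build than that of the counts. Motifs of 3 kinds were searched on both strands: the E2F site, the cell cycle homology region (CHR) and the CCAAT box. An E2F match had the letters TTCCCGC, or the form TTCGCGC, or the form TTGGCGC, or the form TTGCCGC. A CHR match was TTTGAA, or the form TTTAAA, and a CCAAT box was CCAAT. Capitals mark a match to any of them. The windows are chr8:75109259-75109558 for Mcm5, chr11:98907901-98908200 for Cdc6 and chr8:122567765-122568064 for Cdt1 on the plus strand, all S phase genes. They are chr10:69352863-69353162 for Cdk1 on the minus strand, chr7:122159185-122159484 for Plk1 on the plus strand and chr9:70421505-70421804 for Ccnb2 on the minus strand.
Mcm5: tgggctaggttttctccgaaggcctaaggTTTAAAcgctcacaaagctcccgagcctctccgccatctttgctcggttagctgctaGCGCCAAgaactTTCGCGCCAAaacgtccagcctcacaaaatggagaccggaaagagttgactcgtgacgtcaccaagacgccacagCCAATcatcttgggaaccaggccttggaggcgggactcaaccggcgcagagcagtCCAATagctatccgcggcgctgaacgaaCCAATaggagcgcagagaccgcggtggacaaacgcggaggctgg
Cdc6: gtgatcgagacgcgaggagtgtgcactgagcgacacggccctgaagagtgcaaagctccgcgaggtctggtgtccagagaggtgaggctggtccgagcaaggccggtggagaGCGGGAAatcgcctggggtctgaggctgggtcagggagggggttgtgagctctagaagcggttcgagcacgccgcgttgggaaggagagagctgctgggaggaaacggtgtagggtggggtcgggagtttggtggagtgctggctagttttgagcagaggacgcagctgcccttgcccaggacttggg
Cdt1: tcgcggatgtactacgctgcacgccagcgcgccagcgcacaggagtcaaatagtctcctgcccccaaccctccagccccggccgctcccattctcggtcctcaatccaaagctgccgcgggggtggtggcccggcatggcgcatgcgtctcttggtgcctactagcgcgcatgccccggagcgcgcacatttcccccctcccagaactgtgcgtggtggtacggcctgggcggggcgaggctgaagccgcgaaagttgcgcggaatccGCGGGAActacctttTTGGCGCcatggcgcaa
Cdk1: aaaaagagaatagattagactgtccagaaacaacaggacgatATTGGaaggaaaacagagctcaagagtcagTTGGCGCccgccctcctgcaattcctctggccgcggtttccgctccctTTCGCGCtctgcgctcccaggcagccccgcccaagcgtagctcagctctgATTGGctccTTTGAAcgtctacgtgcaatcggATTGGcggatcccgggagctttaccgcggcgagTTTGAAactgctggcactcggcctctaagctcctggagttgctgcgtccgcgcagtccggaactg
Plk1: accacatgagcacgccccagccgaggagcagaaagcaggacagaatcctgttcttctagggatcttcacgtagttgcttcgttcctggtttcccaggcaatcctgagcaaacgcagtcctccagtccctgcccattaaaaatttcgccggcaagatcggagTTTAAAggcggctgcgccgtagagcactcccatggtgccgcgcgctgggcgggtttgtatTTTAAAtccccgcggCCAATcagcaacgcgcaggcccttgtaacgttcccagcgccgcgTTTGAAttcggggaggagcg
Ccnb2: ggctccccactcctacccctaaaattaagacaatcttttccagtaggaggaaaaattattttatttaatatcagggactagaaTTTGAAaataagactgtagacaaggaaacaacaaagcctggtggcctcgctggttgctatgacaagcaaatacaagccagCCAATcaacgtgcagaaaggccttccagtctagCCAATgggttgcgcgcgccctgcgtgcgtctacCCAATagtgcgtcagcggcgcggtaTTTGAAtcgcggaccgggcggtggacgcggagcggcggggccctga
The capitals run together in Mcm5, where TTCGCGC and GCGCCAA, the reverse complement of TTGGCGC, share 4 letters. Mcm5 held 3 E2F matches, 1 CHR and 3 CCAAT boxes, and Cdc6 held only a single E2F match. Cdt1 held 2 E2F matches, both downstream of the start. Cdk1 held 2 E2F matches together with 2 CHR and 3 CCAAT matches. Plk1 and Ccnb2 had no E2F match by these letters, with 3 and 2 CHR matches and 1 and 3 CCAAT boxes.

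Of the 46 members, 38 matched the promoter table and gave 40 windows. Aurkb, Ccna2, Kif20a, Esco2, Mcm4, Tpx2, Ccne2 and Foxm1 were not matched. Windows with an E2F match made up 76.9% of the 13 S phase windows (10 windows), 22.2% of the 18 mitosis windows (4 windows) and 9.57% of all 32851 windows of this length in the table. The CHR letters were in 23.1% of S phase windows (3 windows), 77.8% of mitosis windows (14 windows) and 27.6% of all windows. A CCAAT box was in 76.9% of S phase, 72.2% of mitosis and 37.4% of all windows. S phase here means the licensing, helicase, nucleotide and fork genes, and mitosis means the kinase, checkpoint, centromere, spindle and chromosome structure genes. A match is a stretch of letters and not a measured binding site.

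Levels are CPM, the reads of a gene scaled to library size normalised over the 40 libraries, of reads anywhere between a gene's start and end. TPM, which also divides exon reads by gene length, is used where genes are compared with each other. Sums of marker lists are also in CPM but scaled to the total count alone, so they are not on the scale of the members' levels, and a pair of groups is said to overlap on the normalised scale where the scales differ in that. Total counts ran from 7883989 to 34925667 per library. The targeted genes were read first. Map2k2, which encodes MEK2, was not lower in any subset with the 1Mek2 label: log2 fold changes ran from 0.58 in Immature to 1.58 in ABC, and the average over subsets was 1.10 ± 0.30 (SE; limma adjusted p = 0.0182). Map2k1, which encodes MEK1, averaged -0.32 ± 0.18 (limma adjusted p = 0.34), although a read elsewhere in the gene does not test the deleted stretch. Groups are therefore named by their labels throughout.

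Some libraries stood apart from their group or label. ABC_1Mek2 replicate 3 held 230 CPM of ABC markers summed over 6 genes, against 2282 to 2998 in the other ABC libraries, and 2647 CPM of Follicular markers, against 120 to 428. The ratio of exon reads to 100 gene-span reads of the members, which are separate counts, was 8.68 in ABC_wt replicate 1 and 48.0 to 97.6 in the others. GC_1Mek2 replicate 4 held 2315 CPM of 8 GC markers, against 4032 to 4514 in the other libraries of its group and 3477 to 5112 in wt, although on the normalised scale its 1972 CPM lay within the wt range of 1748 to 5255. It was the lowest of its group for 45 of 46 members. In the Follicular groups, 1Mek2 replicate 2 and wt replicate 4 had the highest summed CPM of the members, 1267 and 787. GC_wt replicate 4 came from an animal whose libraries are named Mek1ff but is labelled wt. The Immature library of that animal, labelled 1Mek2, was left out. In the count table Ms4a1 of the B lineage markers, Ighd of the Follicular markers and Trac of the T cell markers were at 0 in all 12 groups. So were Cox6a2 of the plasmacytoid dendritic cell and Alas2 of the erythroid markers. Clec9a of the dendritic cell and Gzma of the NK cell markers were at 0 throughout as well. Sizes given for marker lists include these genes.

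In wt mice the members' summed level was highest in GC, in every library, and Plasma libraries lay between GC and the Follicular, MarginalZone and ABC libraries. Summed over the 46 members, wt GC libraries held 4300 to 9029 CPM, Immature libraries 533 to 2394 CPM and Plasma libraries 1175 to 1452 CPM. The lower levels were 464 to 787 CPM in Follicular libraries, 440 to 839 CPM in ABC and 344 to 680 CPM in MarginalZone. GC had the highest group median of the 6 subsets for 44 of 46 members and ABC the lowest for 36. By the median of gene-span CPM, Plasma was second for 34 members and Immature for 7. By the median of reads on exons alone, Immature was second for 25 and Plasma for 17, so the order of these neighbours depended on the reads counted. The sums of ABC, Follicular and MarginalZone cells overlapped, and Immature replicate 2, at 533 CPM, lay within the range of all 3.

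**Figure D1:**
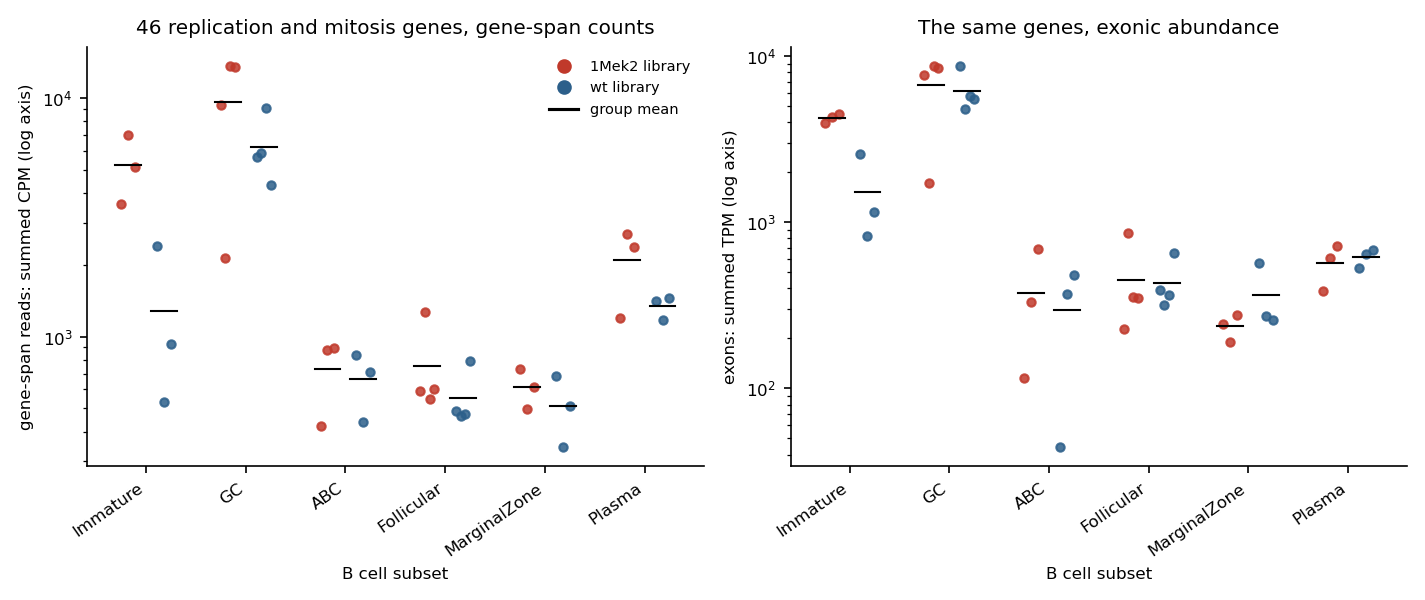
Summed level of the 46 members in each library by subset, in CPM of gene-span reads (left) and in TPM of exons (right), on log axes. Red points are libraries labelled 1Mek2, blue points wt libraries and black bars group means; in Immature the red points lie between 3580 and 7001 CPM and the blue points between 533 and 2394 CPM.

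**Figure D2:**
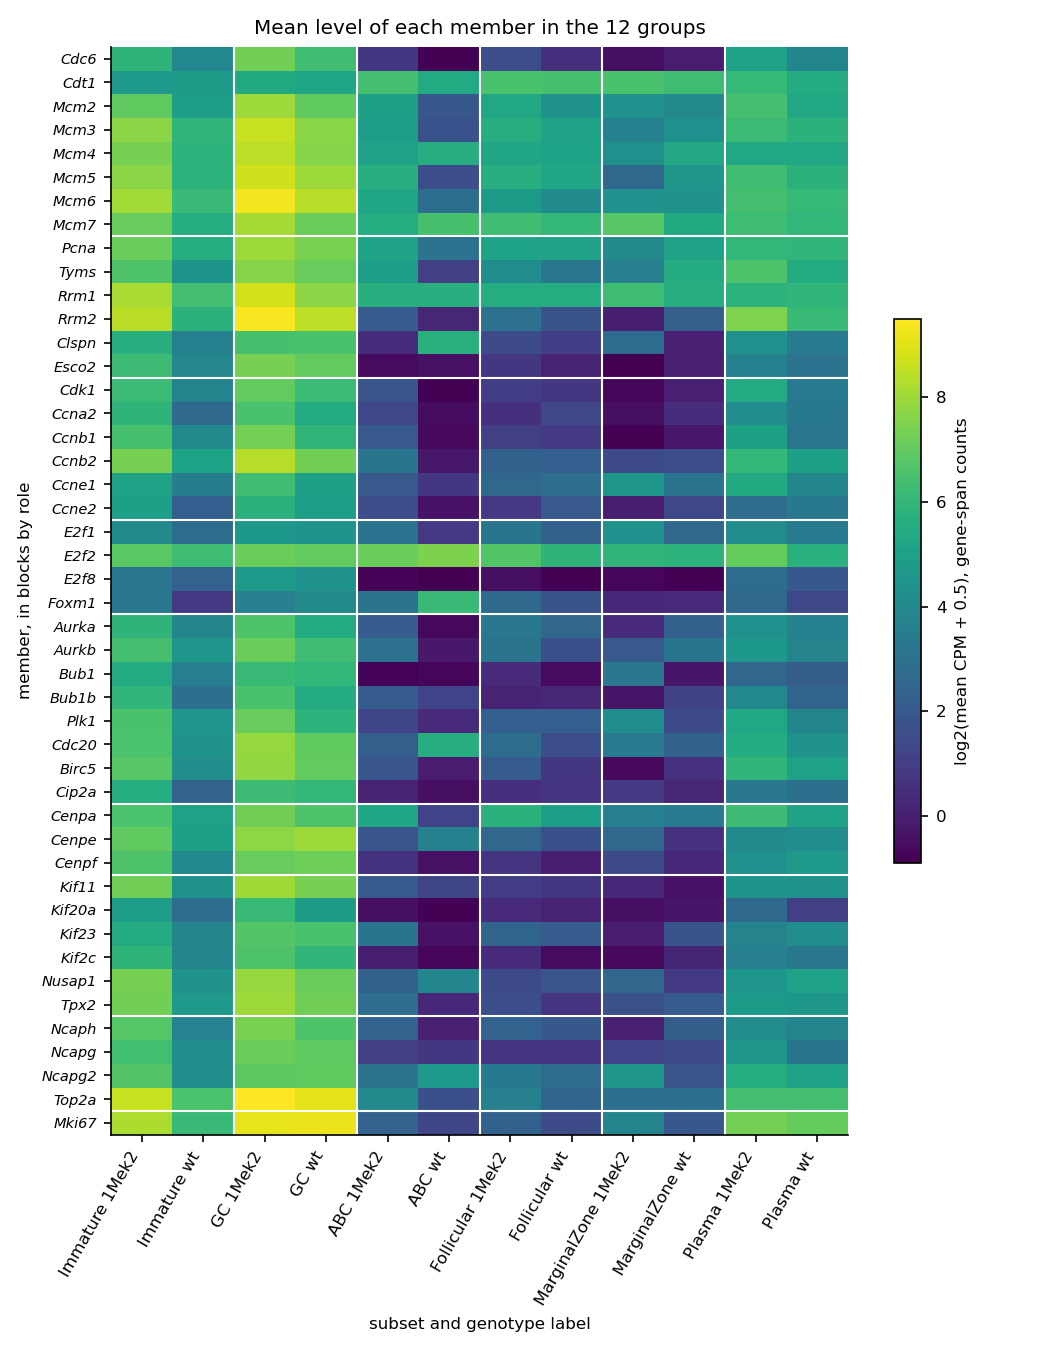
Mean level of each member in the 12 groups as log2(mean CPM + 0.5), with members in rows by role and groups in columns. By group median CPM, which is not what is drawn, GC is highest for 44 members in wt. With the 1Mek2 label GC is highest for 45 and Immature second for 39.

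The comparison of wt GC with wt Follicular cells shows the full range of the program. Of 46 members tested, 45 were higher and 1 lower at an adjusted p under 0.05 (edgeR quasi-likelihood test with Benjamini-Hochberg adjustment over all genes tested). Of all genes tested, 25.1% passed in either direction and 14.6% passed as higher. The median log2 fold change was 5.44 over the members and 0.04 over all genes tested. Every GC library lay above every Follicular library for 45 members, which held for 10.4% of all genes tested. These groups shared no animal. Counting only reads on exons left 45 members higher and none lower, with 18.3% of all genes passing, since the exon p of Cdt1 was 0.0687 after adjustment in edgeR.

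Licensing genes load the MCM helicase onto origins before S phase. Cdc6, the loader, stood at 80.1, 42.7, 139 and 57.4 CPM in GC and 0.683, 0.161, 0.851 and 1.99 CPM in Follicular libraries. Mcm2 and Mcm5 are subunits of the helicase ring. Mcm2 had 123, 109.5, 179 and 78.6 CPM in GC and 19.9, 19.1, 22.0 and 21.8 CPM in Follicular libraries, and Mcm5 had 212, 267, 373 and 141 CPM in GC and 31.9, 32.2, 28.3 and 57.2 CPM in Follicular libraries. The GC libraries were all above the Follicular ones for these genes, with a log2 fold change of 6.76 ± 0.72 for Cdc6 and 3.06 ± 0.37 for Mcm5 (SE; edgeR adjusted p = 3.7e-05 and 9.01e-05). Follicular_wt replicate 4 was the highest of its group for both. Cdt1, the other loader, ran against the rest, with 27.4, 39.6, 55.7 and 29.2 CPM in GC and 97.3, 87.6, 89.2 and 83.6 CPM in Follicular libraries. All GC libraries were below all Follicular libraries (log2 fold change -0.85 ± 0.28 SE, edgeR adjusted p = 0.0413). Among the members Cdt1 also had the highest abundance per length in Follicular cells, 77.8 to 110.1 TPM, where Pcna had 29.9 to 129 TPM.

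Genes of nucleotide supply and the fork rose in GC without exception. Pcna is the sliding clamp of the polymerase, and had 98.7, 143, 280.0 and 145 CPM in GC and 17.3, 23.8, 18.0 and 76.5 CPM in Follicular libraries. Tyms makes thymidylate, and had 109.5, 137, 191 and 103 CPM in GC and 8.63, 9.52, 9.86 and 6.23 CPM in Follicular libraries (log2 fold change 4.39 ± 0.32 SE, edgeR adjusted p = 1.61e-06). Rrm2 is the cell cycle dependent subunit of ribonucleotide reductase, and had 286, 272, 649.8 and 180.0 CPM in GC and 0.897, 1.53, 1.06 and 7.96 CPM in Follicular libraries. Its range in GC of 368 to 771 TPM was the highest of the members by group mean. Esco2, a cohesin acetyltransferase of S phase, had a log2 fold change of 8.16 ± 0.49 (edgeR adjusted p = 4.11e-07).

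Cyclins and their kinase differed by larger folds for the mitotic than for the G1/S members. Cdk1, the kinase that drives entry into mitosis, had 38.9, 64.8, 108 and 79.7 CPM in GC and 0.0854, 0.201, 0.319 and 4.35 CPM in Follicular libraries. Its Follicular values were below 1 CPM in 3 libraries and highest in replicate 4. Ccna2, the S and G2 cyclin, had 32.6, 33.0, 76.9 and 38.1 CPM in GC and 2.56, 0.884, 1.99 and 2.86 CPM in Follicular libraries. Ccnb1, the mitotic cyclin, had 52.0, 30.7, 111 and 42.0 CPM in GC and 0.769, 0.723, 0.639 and 3.28 CPM in Follicular libraries. Ccne1, the cyclin of the G1/S step, had 28.5, 31.6, 47.9 and 19.8 CPM in GC and 4.57, 6.67, 8.51 and 6.28 CPM in Follicular libraries, and its log2 fold change of 2.68 ± 0.40 was the smallest of the 6 genes. All 6 passed in edgeR, with adjusted p-values up to 0.00127.

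The transcription factors were the weakest role by median, 2.72 on the log2 scale. E2f1, an activator of S phase genes, had 11.98, 29.8, 24.4 and 21.1 CPM in GC and 6.19, 4.10, 4.65 and 3.14 CPM in Follicular libraries. E2f2, another activator, had 94.2, 221, 114 and 81.7 CPM in GC and 62.6, 52.5, 56.7 and 61.2 CPM in Follicular libraries and was already well expressed in Follicular cells (log2 fold change 1.49 ± 0.31 SE, edgeR adjusted p = 0.00351). Foxm1, an activator of mitosis genes, had 6.46, 18.1, 28.8 and 9.35 CPM in GC and 1.67, 3.62, 3.94 and 2.36 CPM in Follicular libraries. Its GC libraries lay above the Follicular ones, at a log2 fold change of 2.75 ± 0.60 (edgeR adjusted p = 0.00462). E2f8, an atypical repressor, had 14.3, 19.9, 21.1 and 30.6 CPM in GC and 0, 0.121, 0.106 and 0 CPM in Follicular libraries, and its Follicular values rest on 0, 3, 3 and 0 reads. The fitted log2 fold change of 9.02 ± 0.96 depends on the prior count at such depth.

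All 8 mitotic kinases and checkpoint genes rose in GC. Aurka, the kinase of spindle poles, had 33.6, 32.4, 63.4 and 43.9 CPM in GC and 4.53, 2.29, 1.45 and 13.1 CPM in Follicular libraries. Aurkb, the kinase of the chromosomal passenger complex, had 68.3, 37.8, 146 and 64.9 CPM in GC and 1.41, 1.08, 1.42 and 6.59 CPM in Follicular libraries. Plk1, a kinase that acts throughout mitosis, had 64.2, 58.6, 68.0 and 34.8 CPM in GC and 4.95, 3.90, 4.33 and 3.42 CPM in Follicular libraries. These 3 kinases kept values of 1.08 to 13.1 CPM in Follicular cells. Bub1, a checkpoint kinase, had 58.7, 53.5, 78.3 and 58.9 CPM in GC and 0.128, 0.121, 0.213 and 0.196 CPM in Follicular libraries, with 3, 3, 6 and 7 reads in Follicular libraries. Birc5, the survivin subunit of the passenger complex, had 71.4, 66.5, 211 and 165 CPM in GC and 0.299, 0.442, 1.24 and 2.92 CPM in Follicular libraries. Bub1 was among the 3 members with the largest folds (log2 fold change 8.95 ± 0.49 SE, edgeR adjusted p = 2.34e-07).

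Centromere, spindle and chromosome genes showed the same split. Cenpa, the centromeric histone H3, had 67.7, 88.3, 144 and 88.7 CPM in GC and 27.8, 24.7, 27.0 and 39.8 CPM in Follicular libraries, a smaller difference than Cenpf at 166, 139.7, 186 and 97.7 CPM in GC and 1.11, 0.362, 0.497 and 0 CPM in Follicular libraries. Kif11, the motor that separates spindle poles, had 169.9, 96.5, 284 and 98.8 CPM in GC and 0.726, 0.522, 1.45 and 2.22 CPM in Follicular libraries. Kif20a, a motor of cytokinesis, had 35.8, 17.7, 53.0 and 5.57 CPM in GC and 0.256, 0.964, 0.248 and 0.897 CPM in Follicular libraries. Groups did not overlap for any of the 4. Top2a, which decatenates sister DNA, had 521, 528, 717 and 398 CPM in GC and 4.83, 4.98, 6.14 and 4.32 CPM in Follicular libraries and the lowest p with Cenpe (7.16 ± 0.37 and 6.96 ± 0.37, both at an edgeR adjusted p of 1.75e-07). Mki67, the common marker of cycling cells, had 520.0, 719, 745 and 377 CPM in GC and 0.598, 2.69, 3.16 and 2.97 CPM in Follicular libraries (log2 fold change 8.33 ± 0.57 SE, edgeR adjusted p = 1.19e-06). Kif2c, a microtubule depolymerase, had 8.96 ± 0.60 on 4, 6, 6 and 1 Follicular reads.

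Immature wt cells were the next to exceed Follicular cells. Of 46 members, 33 were higher and 1 lower in edgeR, at a median log2 fold change of 3.22 against 0.47 over all genes. In this comparison 39.4% of all genes passed and 32.3% passed as higher. All 6 spindle genes and all 4 chromosome genes passed as higher, but only 3 of 8 licensing genes did. Top2a had 206, 18.6 and 58.4 CPM in wt Immature libraries and 4.83, 4.98, 6.14 and 4.32 CPM in wt Follicular libraries (log2 fold change 4.85 ± 0.59 SE, edgeR adjusted p = 0.000118). Mki67 had 151, 19.0 and 42.1 CPM in these Immature libraries, at a log2 fold change of 5.50 ± 0.71 (edgeR adjusted p = 0.000149). Replicate 1 was the highest of the 3 Immature libraries for 43 members and replicate 2 the lowest for 41. Kif2c, E2f8 and Bub1 had the largest folds, 7.09 ± 0.89, 6.96 ± 1.15 and 6.70 ± 0.77. Cdt1 was again the member that fell (log2 fold change -0.95 ± 0.30 SE, edgeR adjusted p = 0.0231). On exon reads 23 members were higher and none lower, with 6.58% of all genes passing. The 27 long neuronal genes, which B cells should not express, summed to 1253 to 4007 CPM in these Immature libraries and 35.5 to 90.9 CPM in Follicular libraries, and their part in the gene-span result was not tested. In wt GC libraries they summed to 115 to 3622 CPM, also above Follicular libraries, and their part in that comparison was not tested either. Levels printed here were scaled over 40 libraries and fits over the 2 groups compared, so ratios of printed levels can differ from fitted folds.

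Plasma wt cells were higher than Follicular cells for 26 of 45 members tested and lower for none, at a median of 2.55 against -0.01 over all genes. Of all genes, 17.7% passed and 12.2% passed as higher. Mki67 had 119, 152 and 122 CPM in wt Plasma libraries and 0.598, 2.69, 3.16 and 2.97 CPM in wt Follicular libraries (log2 fold change 5.97 ± 0.58 SE, edgeR adjusted p = 0.000355). Top2a had 101, 74.4 and 83.3 CPM in these Plasma libraries (log2 fold change 4.30 ± 0.31 SE, edgeR adjusted p = 0.000163), and Tyms had 45.6, 45.4 and 42.4 CPM (log2 fold change 2.59 ± 0.31 SE, edgeR adjusted p = 0.000863). No Plasma library overlapped a Follicular library for these genes. Kif2c and Cenpf, a kinetochore protein, had the largest folds, 6.05 ± 0.85 and 6.01 ± 1.01 (edgeR adjusted p = 0.00163 and 0.00365). Cdc6, Mcm2 and Mcm6 were the 3 of 8 licensing genes that passed. These Plasma libraries also held 3076 to 5859 CPM of 10 T cell markers, 1632 to 5146 CPM of 8 neutrophil markers and 1255 to 2209 CPM of 11 erythroid markers. In wt Follicular libraries these lists held 293 to 753, 0.179 to 1.75 and 127 to 227 CPM. The part of other cells in these values was not tested.

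**Figure D3:**
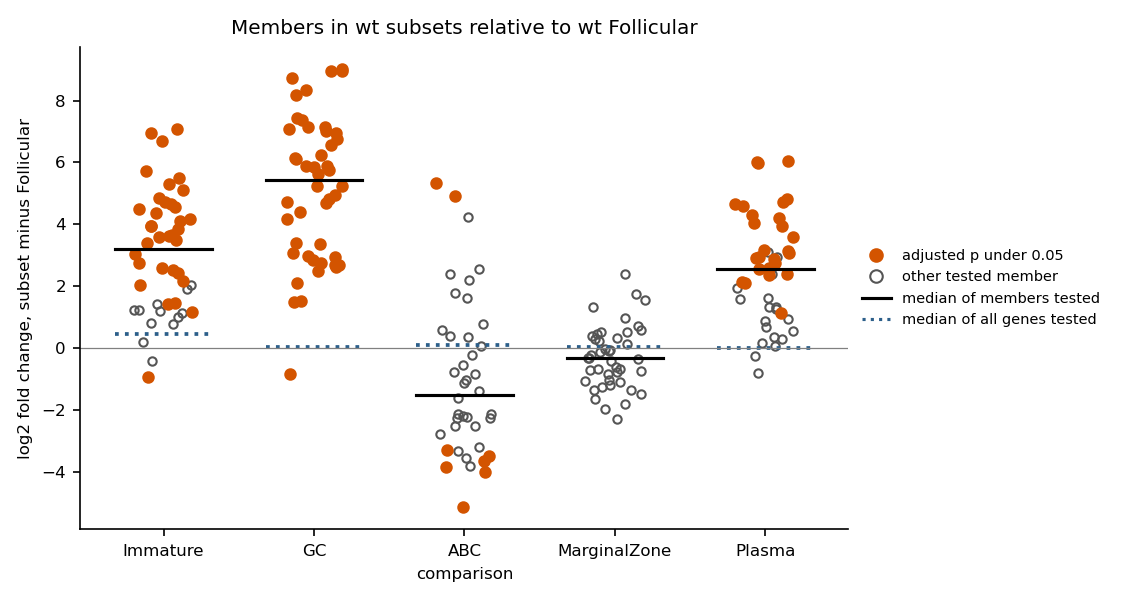
Log2 fold change of each tested member in 5 wt subsets relative to wt Follicular cells. Filled points passed an adjusted p of 0.05, open points did not, black bars are member medians and dotted lines the medians of all genes tested; the member medians run from 5.44 in GC and 3.22 in Immature through 2.55 in Plasma to -0.33 in MarginalZone and -1.51 in ABC. The 5 comparisons share the 4 Follicular libraries.

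MarginalZone and ABC cells did not exceed Follicular cells as a group of genes. For MarginalZone no member of 43 tested passed in edgeR, where 0.34% of all genes did, and 2 had an unadjusted p under 0.05, as did 8.65% of all genes. DESeq2 called 1 member and 3.41% of all genes. The lowest p was that of Tyms, with 20.5, 26.8 and 86.9 CPM in wt MarginalZone libraries and 8.63, 9.52, 9.86 and 6.23 CPM in wt Follicular libraries (log2 fold change 2.39 ± 0.54 SE, edgeR adjusted p = 0.138). MarginalZone values of Mki67 were 2.67, 6.69 and 0.579 CPM and those of Top2a 4.78, 15.1 and 1.38 CPM, and both overlapped Follicular cells.

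For ABC, 2 of 40 members tested were higher and 6 lower than in Follicular cells, with 20.2% of all genes passing, 11.9% as higher and 8.3% as lower. In either direction that was 8 of 40 members, near the share of all genes. The median was -1.51, against 0.08 over all genes. Mcm5 fell to 0.754, 0.543 and 6.37 CPM, and Cenpa to 0.538, 0.868 and 3.93 CPM, in wt ABC libraries (-3.83 ± 1.19 and -3.99 ± 1.12, edgeR adjusted p = 0.0442 and 0.0317). Aurka (-5.14 ± 1.55), Kif23, a motor of the midzone (-3.64 ± 0.94), Ccna2 (-3.29 ± 0.97) and Ccne2 (-3.48 ± 1.11) were the other members that fell. Clspn, a mediator of the replication checkpoint, rose to 123, 26.8 and 3.59 CPM, against 1.37, 1.41, 1.67 and 1.74 CPM in Follicular cells (log2 fold change 5.33 ± 1.24 SE, edgeR adjusted p = 0.0182). Foxm1 had 195, 1.41 and 12.4 CPM in wt ABC libraries and 1.67, 3.62, 3.94 and 2.36 CPM in wt Follicular libraries and passed on gene-span reads (log2 fold change 4.93 ± 1.43 SE, edgeR adjusted p = 0.0356) but not on exon reads (edgeR adjusted p = 0.383). Both gains were led by replicate 1, the library with 8.68 exon reads per 100 gene-span reads. With the animal as a block no member passed. Leaving out a library gave between 0 and 22 members, at medians from -3.26 (without ABC_wt replicate 3) to -0.77 (without Follicular_wt replicate 4). The 22, of 42 tested, came without ABC_wt replicate 3, where 6427 of all genes passed, against 2903 in the main fit. Markers of several cells differed between these groups: B lineage markers summed to 1548 to 2771 CPM in wt ABC and 6001 to 8597 CPM in wt Follicular libraries. The 8 plasmacytoid dendritic cell markers summed to 5126 to 7382 CPM in ABC and 1964 to 2902 CPM in Follicular libraries. The 27 long neuronal genes summed to 657 to 1395 CPM in ABC and 35.5 to 90.9 CPM in Follicular libraries. The part of other cells and of reads in the neuronal genes in the result was not tested.

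Compared with wt Immature cells, wt GC cells were higher for 38 of 46 members and lower for none, with 2.61% of all genes passing and 1.94% passing as higher. The median was 2.56, against 0.04 over all genes. Cip2a, an inhibitor of the phosphatase PP2A that also guards mitotic chromosomes, had 50.2, 76.1, 93.1 and 28.6 CPM in wt GC libraries and 8.64, 2.20 and 3.53 CPM in wt Immature libraries (log2 fold change 3.80 ± 0.61 SE, edgeR adjusted p = 5.06e-07). Cenpf had 166, 139.7, 186 and 97.7 CPM in GC and 26.9, 9.23 and 9.44 CPM in Immature libraries (3.38 ± 0.56, edgeR adjusted p = 1.22e-06). Esco2 had 96.2, 137, 178 and 95.5 CPM in GC and 28.3, 5.06 and 10.8 CPM in Immature libraries (3.22 ± 0.56, edgeR adjusted p = 3.89e-06). Foxm1 differed by 3.66 ± 0.89 (edgeR adjusted p = 0.00343). Animals 358, 413 and 487 gave a library of each subset. The count fell to 2 without Immature_wt replicate 2 and to 13 without replicate 3, where 114 and 163 of all genes passed. It was 24 on exon reads, where 4.51% of all genes passed. It was 0 when all 40 libraries shared a fit, where 0.195% of all genes passed and the median was 2.36.

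Plasma wt cells were lower than GC cells for 40 of 46 members and higher for none, with 19.1% of all genes passing and 10.8% passing as lower. The median was -2.45, against -0.05 over all genes. Kif20a fell the most, to 3.03, 1.07 and 0.784 CPM in Plasma against 35.8, 17.7, 53.0 and 5.57 CPM in GC (log2 fold change -4.18 ± 0.87 SE, edgeR adjusted p = 0.00341). Its gene overlaps Brd8 and Cdc23, so some of its reads cannot be assigned. Bub1 fell to 5.15, 2.28 and 4.47 CPM, against 58.7, 53.5, 78.3 and 58.9 CPM in GC (-4.12 ± 0.52, edgeR adjusted p = 6.32e-05). Esco2 (-4.12 ± 0.47), Cenpe, a kinetochore motor (-3.92 ± 0.47), and Ncapg, a condensin subunit (-3.90 ± 0.49), followed. Mki67 fell by less, with a log2 fold change of -2.27 ± 0.39, and kept 119, 152 and 122 CPM in Plasma libraries. The wt GC libraries enter this comparison and those with Follicular and Immature cells, so the 3 are not independent.

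Between genotypes, the members differed most clearly in Immature cells. All 46 were tested, and 17 were higher and none lower in libraries labelled 1Mek2, while 0.933% of all genes passed and 0.81% passed as higher. The median log2 fold change was 1.99, against -0.17 over all genes tested. Every library labelled 1Mek2 lay above every wt library for 43 members, which held for 8.52% of all genes. Cdt1, E2f1 and E2f8 were the members that overlapped. An unadjusted p under 0.05 was reached by 36 members and by 8.71% of all genes. The summed level was 3580 to 7001 CPM with the 1Mek2 label and 533 to 2394 CPM in wt, a ratio of means of 4.08, or 2.81 in TPM.

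The calls in Immature cells depended on single libraries and on the fit. Replicate 1 of wt was the highest of its group for 43 members, and without it 40 members and 549 of all genes passed. Without replicate 3 of the 1Mek2 label 2 members and 32 of all genes passed. Without replicate 2 of that label 36 members and 738 of all genes passed. On exon reads 2 passed (0.342% of all genes), at a median of 1.86. In a fit of all 40 libraries none did, with 0% of all genes passing, at a median of 1.97. Reads in the 27 long neuronal genes summed to 425 to 2197 CPM with the 1Mek2 label and 1253 to 4007 CPM in wt, and with that sum as a covariate no gene passed, at a member median of 1.46. Lists of other cells moved with the label as well: 7 plasma cell markers summed to 2696 to 6579 CPM with the 1Mek2 label and 447 to 1289 CPM in wt, and all 7 were detected in both groups. The 8 GC markers summed to 1615 to 1868 CPM with the label and 289 to 879 CPM in wt. The 6 Immature markers overlapped, at 339 to 644 and 472 to 661 CPM. Other lists were lower with the label: B lineage markers at 4706 to 5149 CPM against 6286 to 6498 in wt, Follicular markers at 545 to 758 CPM against 899.8 to 1313 in wt, and erythroid markers at 44.1 to 68.1 CPM against 107 to 157 in wt. T cell markers were at 554 to 657 CPM with the label and 719 to 739.8 CPM in wt, and plasmacytoid dendritic cell markers at 1631 to 1973 CPM with the label and 2137 to 2460.0 CPM in wt. These 5 lists overlapped on the normalised scale. The 8 stromal and endothelial markers were lower on both scales, at 164 to 231 CPM with the label and 335 to 426 CPM in wt. The part of cells of other stages in the result was not tested.

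**Figure D4:**
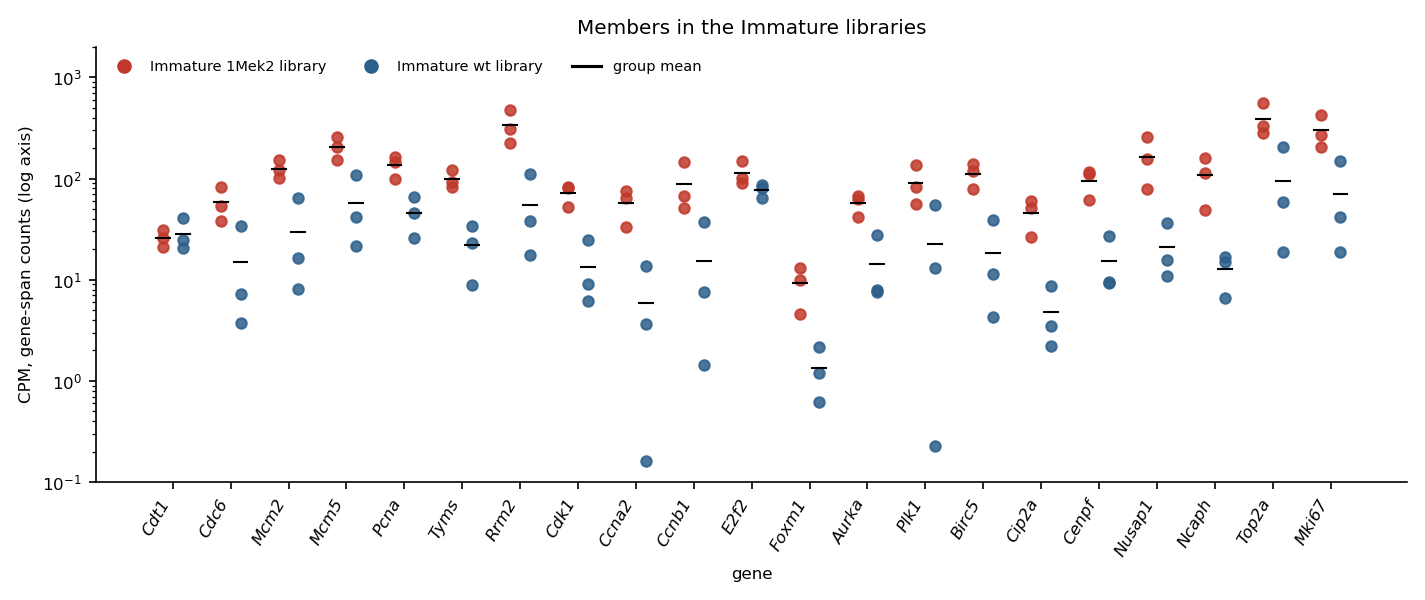
CPM of 21 members in each Immature library on a log axis, with libraries labelled 1Mek2 in red, wt libraries in blue and group means as black bars. The red points lie above the blue points for every gene drawn except Cdt1, where 20.8 to 31.0 CPM with the 1Mek2 label meet 20.6 to 40.7 CPM in wt. E2f1 and E2f8, whose libraries also overlapped, are not drawn. The genes drawn were picked and include Cip2a, Ncaph and Nusap1, the called members with the largest folds.

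Among licensing genes 5 of 8 rose in Immature cells, all subunits of the helicase (Mcm3, Mcm4, Mcm5, Mcm6 and Mcm7). Mcm5 had 151, 257 and 207 CPM in Immature libraries labelled 1Mek2 and 108, 21.8 and 41.3 CPM in wt. Every 1Mek2 value was above the wt values, of which replicate 1 was the highest (log2 fold change 1.78 ± 0.43 SE, edgeR adjusted p = 0.0249). Mcm2 had 121, 151 and 102 CPM in Immature libraries labelled 1Mek2 and 64.0, 8.04 and 16.4 CPM in wt, which did not overlap but missed the threshold (log2 fold change 2.01 ± 0.61 SE, edgeR adjusted p = 0.213). Cdc6 had 38.1, 53.4 and 82.8 CPM in Immature libraries labelled 1Mek2 and 33.9, 3.71 and 7.24 CPM in wt. Its lowest value with the label was close to wt replicate 1, and it did not pass (log2 fold change 1.90 ± 0.70 SE, edgeR adjusted p = 0.387). Cdt1 had 31.0, 20.8 and 25.7 CPM in Immature libraries labelled 1Mek2 and 40.7, 20.6 and 24.7 CPM in wt. These overlapped throughout (log2 fold change -0.22 ± 0.46 SE, edgeR adjusted p = 0.863).

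Of the nucleotide and fork genes, Pcna, Tyms, Rrm1 and Esco2 rose. Tyms had 82.4, 123 and 92.4 CPM in Immature libraries labelled 1Mek2 and 34.1, 8.80 and 23.1 CPM in wt, and the groups were separated by a wide margin (log2 fold change 2.10 ± 0.42 SE, edgeR adjusted p = 0.0018). Pcna had 99.4, 147 and 165 CPM in Immature libraries labelled 1Mek2 and 66.1, 26.1 and 45.9 CPM in wt (log2 fold change 1.51 ± 0.39 SE, edgeR adjusted p = 0.0261). Rrm2 had 224, 480.5 and 312 CPM in Immature libraries labelled 1Mek2 and 111, 17.5 and 37.8 CPM in wt. The Rrm2 groups did not overlap, although the test missed the threshold (log2 fold change 2.55 ± 0.57 SE, edgeR adjusted p = 0.0516). Clspn was the other fork gene that did not pass, at 1.89 ± 0.52 (edgeR adjusted p = 0.0694).

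Cdk1 was the member of the cyclin group that rose, with 52.8, 81.9 and 80.2 CPM in Immature libraries labelled 1Mek2 and 25.0, 6.23 and 9.16 CPM in wt (log2 fold change 2.35 ± 0.45 SE, edgeR adjusted p = 0.00135). Ccna2 had 33.3, 75.5 and 63.8 CPM in Immature libraries labelled 1Mek2 and 13.6, 0.160 and 3.68 CPM in wt. Ccnb1 had 51.4, 146 and 67.3 CPM in Immature libraries labelled 1Mek2 and 36.9, 1.44 and 7.49 CPM in wt. The wt values of these cyclins were spread by more than those of Cdk1, and neither passed (3.25 ± 1.52 and 2.46 ± 1.31, edgeR adjusted p = 0.657 and 0.694). Ccne1 had 19.3, 33.9 and 48.9 CPM in Immature libraries labelled 1Mek2 and 17.9, 7.28 and 7.86 CPM in wt, with the lowest labelled value next to wt replicate 1 (log2 fold change 1.57 ± 0.50 SE, edgeR adjusted p = 0.134).

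None of the 4 transcription factors passed. E2f1 had 6.48, 16.1 and 26.5 CPM in Immature libraries labelled 1Mek2 and 4.02, 4.72 and 10.2 CPM in wt. E2f2 had 90.3, 149.7 and 101 CPM in Immature libraries labelled 1Mek2 and 64.8, 87.2 and 80.9 CPM in wt. The E2f1 groups overlapped, and those of E2f2 were separated by a narrow gap (log2 fold change 0.47 ± 0.37 SE, edgeR adjusted p = 0.731). E2f8 had 14.3, 6.17 and 5.35 CPM in Immature libraries labelled 1Mek2 and 10.2, 1.17 and 2.72 CPM in wt, and also overlapped. Foxm1 had 9.92, 13.1 and 4.63 CPM in Immature libraries labelled 1Mek2 and 1.20, 0.618 and 2.17 CPM in wt. Its libraries did not overlap (log2 fold change 2.72 ± 0.85 SE, edgeR adjusted p = 0.117).

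Aurka, Cdc20, the activator of the anaphase-promoting complex, and Cip2a rose among the 8 mitotic kinases and checkpoint genes. Cip2a had 26.7, 59.8 and 50.8 CPM in Immature libraries labelled 1Mek2 and 8.64, 2.20 and 3.53 CPM in wt (log2 fold change 3.19 ± 0.53 SE, edgeR adjusted p = 9.54e-05). Aurka had 41.6, 62.9 and 67.4 CPM in Immature libraries labelled 1Mek2 and 27.5, 7.90 and 7.52 CPM in wt (log2 fold change 1.93 ± 0.47 SE, edgeR adjusted p = 0.0169). Both separated the groups in every library. Aurkb had 56.5, 127 and 70.5 CPM in Immature libraries labelled 1Mek2 and 47.4, 12.03 and 9.56 CPM in wt. Plk1 had 56.2, 135 and 82.6 CPM in Immature libraries labelled 1Mek2 and 54.8, 0.229 and 12.97 CPM in wt, with wt values that span from 0.229 to 54.8 CPM. Plk1 missed the threshold at nearly the same fold as Aurka (log2 fold change 1.94 ± 1.68 SE, edgeR adjusted p = 0.755). Bub1 had 26.4, 40.2 and 63.3 CPM in Immature libraries labelled 1Mek2 and 23.3, 3.28 and 8.23 CPM in wt. Birc5 had 78.4, 139 and 119 CPM in Immature libraries labelled 1Mek2 and 38.9, 4.26 and 11.5 CPM in wt. Neither passed (edgeR adjusted p = 0.0965 and 0.137).

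Cenpf, Nusap1, a spindle assembly protein, and the condensin subunits Ncaph and Ncapg2 rose among the remaining genes. Ncaph had 49.1, 161 and 114 CPM in Immature libraries labelled 1Mek2 and 16.6, 6.57 and 14.9 CPM in wt, and the lowest p of the members (log2 fold change 3.03 ± 0.45 SE, edgeR adjusted p = 7.05e-06). Nusap1 had 79.5, 259 and 157 CPM in Immature libraries labelled 1Mek2 and 36.4, 10.9 and 15.6 CPM in wt (log2 fold change 2.91 ± 0.45 SE, edgeR adjusted p = 0.000206). Cenpf had 60.8, 110.1 and 115 CPM in Immature libraries labelled 1Mek2 and 26.9, 9.23 and 9.44 CPM in wt (log2 fold change 2.58 ± 0.44 SE, edgeR adjusted p = 0.000184). Cenpf and Nusap1 were the members that also passed on exon reads (edgeR adjusted p = 0.0349 and 0.048). Cenpa had 58.9, 123 and 96.6 CPM in Immature libraries labelled 1Mek2 and 50.1, 17.6 and 30.5 CPM in wt. Kif11 had 96.0, 227 and 124 CPM in Immature libraries labelled 1Mek2 and 45.6, 6.32 and 12.4 CPM in wt. Kif20a had 19.3, 35.4 and 34.5 CPM in Immature libraries labelled 1Mek2 and 17.1, 0.183 and 2.07 CPM in wt. These 3 did not overlap between labels and did not pass (edgeR adjusted p = 0.0635, 0.144 and 0.735).

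The most used markers of cycling cells did not pass in Immature cells. Top2a had 281, 563 and 331 CPM in Immature libraries labelled 1Mek2 and 206, 18.6 and 58.4 CPM in wt (log2 fold change 1.98 ± 0.93 SE, edgeR adjusted p = 0.649). Mki67 had 204, 428 and 269 CPM in Immature libraries labelled 1Mek2 and 151, 19.0 and 42.1 CPM in wt (log2 fold change 2.02 ± 0.73 SE, edgeR adjusted p = 0.449). Both were separated without overlap, and wt replicate 1 was nearest to the other genotype.

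**Figure D5:**
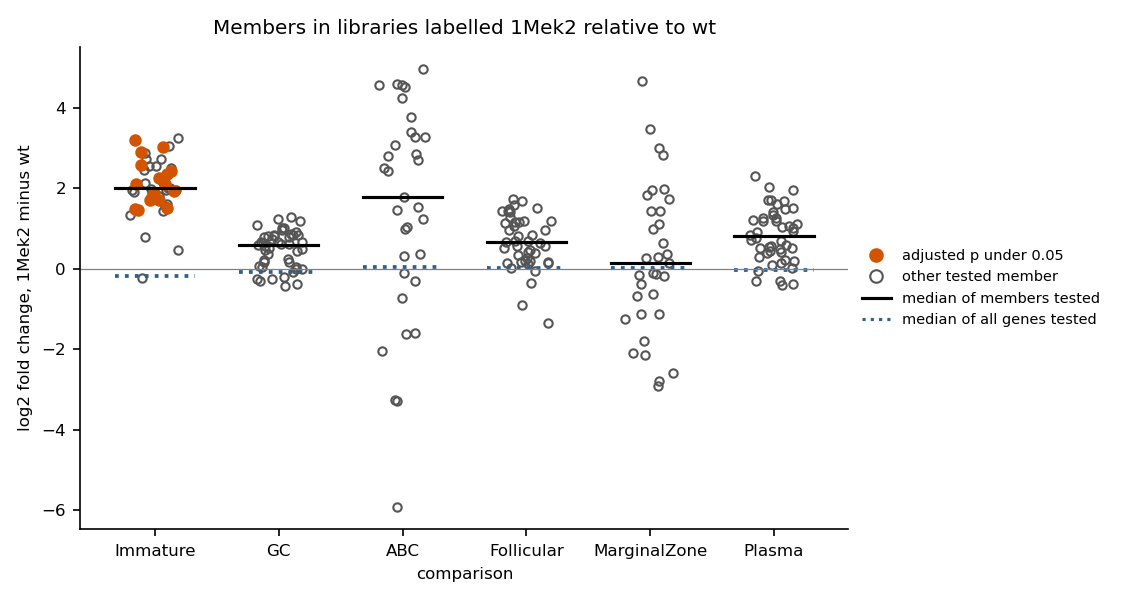
Log2 fold change of each tested member in libraries labelled 1Mek2 relative to wt, by subset. Filled points passed an adjusted p of 0.05, open points did not, black bars are member medians and dotted lines the medians of all genes tested; the member median is 1.99 in Immature, against 0.14 in MarginalZone, and lies between them elsewhere.

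In GC cells no member passed between genotypes in edgeR, where 0.054% of all genes did. An unadjusted p under 0.05 was reached by 5 members and 12.1% of all genes, and DESeq2 called no member and 0.851% of all genes. The median was 0.60, against -0.09 over all genes. It was 0.20 without wt replicate 2, 0.31 without replicate 2 of the 1Mek2 label, 0.36 without replicate 3 and 0.97 without replicate 4 of that label. It was 0.24 on exon reads and -0.18 with limma on TPM, and the ratio of mean summed levels was 1.55 in CPM and 1.08 in TPM. Mki67 had 602, 761, 645 and 172 CPM in libraries labelled 1Mek2 and 520.0, 719, 745 and 377 CPM in wt. Mcm5 had 456, 587, 609 and 65.9 CPM in libraries labelled 1Mek2 and 212, 267, 373 and 141 CPM in wt. Ccnb1 had 123, 253, 244 and 13.9 CPM in libraries labelled 1Mek2 and 52.0, 30.7, 111 and 42.0 CPM in wt. In each, replicate 4 of the 1Mek2 label was the lowest of the 8 GC libraries. Across the 46 members none separated the labels with that library, against 3.38% of all genes higher without overlap. Without it 18 members were higher with no overlap, against 8.83% of all genes. That library was singled out after its low member values were seen, so leaving it out favours the members. The count is therefore no test of the label. The largest log2 fold change was 1.29 ± 0.56 for Ccnb1 (edgeR adjusted p = 0.409).

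In Plasma cells no member of 46 passed in edgeR, with 0.0605% of all genes passing and 10 members and 15.4% of all genes at an unadjusted p under 0.05. DESeq2 called 4 members and 7.26% of all genes. The median was 0.81, against -0.02 over all genes, and 41 members had a positive value. With limma on TPM the median was -0.14. Cdk1 had 25.6, 41.8 and 63.8 CPM in libraries labelled 1Mek2 and 5.93, 10.4 and 12.5 CPM in wt, without overlap (log2 fold change 2.30 ± 0.49 SE, edgeR adjusted p = 0.0895). Tyms had 66.3, 108 and 110.1 CPM in libraries labelled 1Mek2 and 45.6, 45.4 and 42.4 CPM in wt (log2 fold change 1.22 ± 0.35 SE, edgeR adjusted p = 0.157). Mki67 had 129.8, 210.4 and 134 CPM in libraries labelled 1Mek2 and 119, 152 and 122 CPM in wt (log2 fold change 0.41 ± 0.36 SE, edgeR adjusted p = 0.636). The Mki67 values of the genotypes overlapped, whereas Cdk1 and Tyms were among the 8 members separated without overlap, in the direction of the 1Mek2 label. That held for 10.8% of all genes, so 8 of 46 is not far from the background. Summed TPM was 385 to 721 with the 1Mek2 label and 534 to 680 in wt, and overlapped. B lineage markers summed to 1973 to 2153 CPM with the label and 547 to 892 CPM in wt, and GC markers to 231 to 391 and 159 to 216 CPM. Lower with the label were T cell (2205 to 2921 against 3076 to 5859 CPM), macrophage and monocyte (1134 to 1446 against 1708 to 3074 CPM) and Follicular markers (107 to 208 against 808 to 962 CPM). Dendritic cell, marginal zone, stromal and endothelial, and stem and progenitor markers were lower as well. None of these lists overlapped on either scale. The part of other cells in these values was not tested.

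In Follicular cells no member of 43 tested passed in edgeR, and 0% of all genes did, with 5 members and 11.1% of all genes at an unadjusted p under 0.05. DESeq2 called no member and 0.948% of all genes. The median was 0.67, against 0.02 over all genes. E2f2 had 68.6, 112, 115 and 111 CPM in libraries labelled 1Mek2 and 62.6, 52.5, 56.7 and 61.2 CPM in wt (log2 fold change 0.95 ± 0.29 SE, edgeR adjusted p = 0.42). Tyms had 27.6, 15.1, 10.99 and 16.1 CPM in libraries labelled 1Mek2 and 8.63, 9.52, 9.86 and 6.23 CPM in wt (log2 fold change 1.20 ± 0.37 SE, edgeR adjusted p = 0.42). Mcm2 had 25.0, 81.0, 27.0 and 27.3 CPM in libraries labelled 1Mek2 and 19.9, 19.1, 22.0 and 21.8 CPM in wt (log2 fold change 1.16 ± 0.47 SE, edgeR adjusted p = 0.422). These 3 were the members without overlap, a feature of 3.28% of all genes in that direction. Mki67 was at 3.21, 5.79, 6.33 and 3.09 CPM in libraries labelled 1Mek2 and 0.598, 2.69, 3.16 and 2.97 CPM in wt. Without replicate 2 of the 1Mek2 label the median was -0.10, and without both libraries that stood apart it was 0.32. It was 1.15 without wt replicate 4, -0.09 with limma on TPM and -0.55 with the neuronal covariate.

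In ABC, 33 members were tested and none passed in edgeR, with 0% of all genes passing. An unadjusted p under 0.05 was reached by 8 members and 20% of all genes, and DESeq2 called 8 members and 11.5% of all genes. The median was 1.78, against 0.03 over all genes. Without 1 library it ran from 1.34 (without 1Mek2 replicate 3) through 3.02 (without 1Mek2 replicate 1) to 4.15 (without wt replicate 3). With the neuronal covariate it was 0.05, and the neuronal genes summed to 22.8 to 457 CPM with the label and 657 to 1395 CPM in wt. Mcm5 had 14.5, 85.1 and 48.8 CPM in libraries labelled 1Mek2 and 0.754, 0.543 and 6.37 CPM in wt (log2 fold change 4.50 ± 1.70 SE, edgeR adjusted p = 0.177). Cenpa had 60.1, 6.62 and 44.5 CPM in libraries labelled 1Mek2 and 0.538, 0.868 and 3.93 CPM in wt (log2 fold change 4.56 ± 1.75 SE, edgeR adjusted p = 0.181). Clspn had 0.209, 1.22 and 1.11 CPM in libraries labelled 1Mek2 and 123, 26.8 and 3.59 CPM in wt and the opposite sign (log2 fold change -5.92 ± 1.89 SE, edgeR adjusted p = 0.148). Of the 33, 7 were higher and 1 lower without overlap, against 13.7% of all genes higher and 12.3% lower. The remaining 13 members were too low to test. When all 40 libraries shared a fit, 17 members were higher and 1 lower, and 21% of all genes passed. Markers of other cells also moved with the label in ABC. B lineage markers summed to 4708 to 7128 CPM with the label and 1548 to 2771 CPM in wt, and neutrophil markers to 42.9 to 202 and 0 to 0.176 CPM. T cell markers summed to 911 to 1052 CPM with the label and 239.6 to 617 CPM in wt, and erythroid markers to 116 to 321 and 12.1 to 67.1 CPM, both overlapping on the normalised scale. The 8 GC markers were lower with the label, at 171 to 449.9 CPM against 622 to 742 in wt. The part of other cells in the result was not tested.

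In MarginalZone cells no member of 33 tested passed in edgeR, with 0% of all genes passing and 4 members and 8.77% of all genes at an unadjusted p under 0.05. DESeq2 called no member and 1.56% of all genes. The median was 0.14, against 0.02 over all genes, and it ran from -0.77 (without 1Mek2 replicate 3) to 1.12 (without wt replicate 2) when single libraries were left out. Mcm5 had 5.97, 5.97 and 4.47 CPM in libraries labelled 1Mek2 and 15.9, 38.1 and 17.2 CPM in wt (log2 fold change -2.14 ± 0.95 SE, edgeR adjusted p = 0.551). Bub1 had 0, 10.5 and 16.5 CPM in libraries labelled 1Mek2 and 0.562, 0.345 and 0.0724 CPM in wt (log2 fold change 4.67 ± 1.78 SE, edgeR adjusted p = 0.529). Mki67 had 1.73, 1.04 and 37.3 CPM in libraries labelled 1Mek2 and 2.67, 6.69 and 0.579 CPM in wt. For Mcm5 all values with the 1Mek2 label were lower, and for Bub1 and Mki67 1 or 2 libraries with the label were high. Macrophage and monocyte markers summed to 223 to 374 CPM with the label and 49.9 to 155 CPM in wt. Immature markers summed to 184 to 259 and 97.1 to 127 CPM. Plasmacytoid dendritic cell markers summed to 3212 to 4121 and 2247 to 3183 CPM. These lists did not overlap on either scale, and no list was lower without overlap. The part of other cells in these values was not tested.

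Averaged over the 6 subsets, with the animal as a random block, 4 of 46 members were higher with the 1Mek2 label and none lower (limma voom), while 6% of all genes passed and 4.63% passed as higher. A share of 4 in 46 is near that background. All 46 averages were positive, at a median of 0.90, against -0.12 over all genes. The 4 were Mcm2 at 1.51 ± 0.33 (limma adjusted p = 0.0027), Tyms at 1.13 ± 0.30 (adjusted p = 0.0178), Cenpa at 1.25 ± 0.36 (adjusted p = 0.0285) and Ccnb2, a mitotic cyclin, at 1.53 ± 0.48 (adjusted p = 0.0445). Mcm2 was the member that also passed on exon reads, where 4.16% of all genes did. Mki67 averaged 1.06 ± 0.42 and Top2a 0.95 ± 0.43 (limma adjusted p = 0.131 and 0.199). The count ran from 1 to 10 when each animal was left out in turn, with 1655 of all genes passing in the fit that gave 10.

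The genotype difference itself differed between subsets for 6 members (edgeR test with 5 degrees of freedom), where 2% of all genes passed. The test had no block for the animal and took the libraries as independent, although many animals gave several subsets. These were Tyms (edgeR adjusted p = 0.0032), Clspn (0.011), Mcm5 (0.0113), Kif23 (0.0136), Nusap1 (0.0393) and Ncaph (0.0437). Tyms had log2 fold changes of 2.10 ± 0.42 in Immature, 4.23 ± 1.67 in ABC and -1.80 ± 0.93 in MarginalZone, of which the Immature value passed on its own. Its values in MarginalZone were 16.7, 3.40 and 16.1 CPM in libraries labelled 1Mek2 and 20.5, 26.8 and 86.9 CPM in wt. Mcm5 was also positive in Immature (1.78 ± 0.43) and ABC (4.50 ± 1.70) and negative in MarginalZone (-2.14 ± 0.95). Clspn had a positive value in Immature (1.89 ± 0.52) and a negative value in ABC (-5.92 ± 1.89). Nusap1 was 2.91 ± 0.45 in Immature and -1.63 ± 1.55 in ABC. The counts ran from 2 to 12 without each animal in turn. In the fit that gave 12, 2032 of all genes passed, against 503 with every animal.

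The balance of S phase to mitosis transcripts was taken as log2 of the summed TPM of 14 S phase genes over that of 21 mitosis genes. It was 0.28 to 0.88 with the 1Mek2 label and 0.07 to 0.39 in wt GC cells, and 0.54 to 2.34 with the label and 2.22 to 2.36 in wt Follicular cells. Follicular_1Mek2 replicate 1, at 0.54, lay within the range of GC cells, and the other Follicular libraries lay above it. Immature cells had 0.07 to 0.44 with the label and 0.42 to 1.15 in wt, overlapping at a single library of each. Plasma cells had 0.62 to 0.83 with the label and 0.72 to 1.07 in wt. MarginalZone cells had 0.63 to 3.30 with the label and 1.94 to 4.90 in wt. ABC cells had 2.09 to 2.65 with the label and the widest spread in wt, -1.34 to 3.59, with mitosis genes above S phase genes in replicate 2. Some ratios rest on values near the floor. In ABC_wt replicates 1 and 2, 12 and 17 members were at 0 TPM. The 4.90 came from MarginalZone_wt replicate 3, with 7.34 TPM of mitosis genes and 7 members at 0 TPM. The S phase sum also includes Cdt1, which ran against the other members in GC and Follicular cells. No test was run on these ratios.

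Other genes of the pathway were taken from lists of 40 replication and 56 mitosis genes outside the 46. In the Immature comparison of genotypes, 7 of 40 replication genes and 12 of 55 mitosis genes tested were higher and none lower. Mcm10, a factor that activates the helicase, rose by 2.96 ± 0.62 (edgeR adjusted p = 0.0118). Cdc25c, the phosphatase that activates Cdk1, rose by 3.16 ± 0.59 (edgeR adjusted p = 0.000526). Mybl2, which encodes B-Myb, rose by 2.84 ± 0.61 (edgeR adjusted p = 0.00386), as did Tfdp1, the E2F partner DP1, by 1.87 ± 0.43 (adjusted p = 0.00919). They were 2 of 15 genes of the RB, E2F and MuvB families. None of 6 G1 cyclins and kinases, 7 quiescence genes or 10 ERK targets passed, and 1 of 5 inhibitors of cyclin-dependent kinases did, Cdkn2c (2.10 ± 0.54, edgeR adjusted p = 0.0285).

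In wt GC against Follicular cells, 36 of 40 replication and 54 of 55 mitosis genes were higher and none lower. Genes that act before S phase did not move as a block: Cdc25a rose by 2.21 ± 0.42 and Ccnd3, cyclin D3, fell with a log2 fold change of -2.22 ± 0.48 (edgeR adjusted p = 0.00238 and 0.00433) among 6 tested. Cdkn2c, which encodes p18, rose by 3.88 ± 0.59, and Cdkn1b, which encodes p27, fell (-2.48 ± 0.43, edgeR adjusted p = 0.00137). Rb1, the retinoblastoma gene, fell as well (-1.72 ± 0.34, edgeR adjusted p = 0.00267).

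Against wt GC cells, 26 of 40 replication and 41 of 55 mitosis genes were lower and none higher in wt Plasma cells. Of 6 G1 cyclins and kinases tested, 2 were higher and none lower. These were Ccnd1 and Ccnd2, cyclins D1 and D2, at log2 fold changes of 6.74 ± 1.01 and 3.04 ± 0.38 (edgeR adjusted p = 0.000282 and 5.73e-05), while Ccnd3 had 1.21 ± 0.51 (adjusted p = 0.108). Against Follicular cells, 3 of the 6 were higher, Ccnd1 by 4.26 ± 0.55, Ccnd2 by 2.57 ± 0.31 and Cdc25a by 2.14 ± 0.51, and Ccnd3 had -1.07 ± 0.73 (adjusted p = 0.37). The inhibitor Cdkn1a, or p21, was higher as well (2.44 ± 0.53, edgeR adjusted p = 0.0121). Averaged over subsets, Cdk4 and Ccnd2, from the list of 7 G1 genes, were higher with the 1Mek2 label by 1.30 ± 0.26 and 0.63 ± 0.18 (limma adjusted p = 0.00141 and 0.0307). Spry2, a single gene from the list of 14 ERK targets, was lower (-1.75 ± 0.53, limma adjusted p = 0.041). Of all genes, 6% passed in that average.

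Members differed in how closely they followed the rest. Spearman correlations of each member's log2 CPM with the mean of the other 45, over the 40 libraries, were highest for Cdc6 (0.979), Rrm2 (0.978) and Cdk1 (0.970). They were lowest for Cdt1 (-0.456), E2f2 (0.359) and Foxm1 (0.379). The libraries share depth, scaling and animals, so these values describe the table and carry no p.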

How the data were processed

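RNA-seq libraries of 40 sorted samples were used, and the Immature library of the animal named Mek1ff was left out of the main results. Per the submitters' processing notes, the authors' tools included featureCounts 2.0.3, STAR 2.7.11a and Trim Galore 0.6.5, with the build GRCm39 (mm39). The steps each tool did, and whether counting used strand, are not given in the sources used here. The authors deposited raw counts, which cover the whole span of 50760 of 50763 genes in the table, and TPM values for exons. Multiplying the deposited TPM by gene length and dividing by a constant fitted per library recovered exon reads, which served as an alternative. Of the low values checked, 100% were whole within a tolerance of 0.02, and higher values were rounded without that check. Exon reads are a count separate from gene-span reads: Plasma_1Mek2 replicate 2 had 10132291 of them and a total count of 7883989. At most 5.27% of TPM fell on 6 entries that name no gene, which were left out. Some members overlap other genes (8 on the same strand and 10 on the other), and their reads cannot be assigned with certainty.

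Genes were filtered and TMM-scaled within each comparison and tested with edgeR 4.0.16 (quasi-likelihood, R 4.3.3), with Benjamini-Hochberg adjustment over all genes tested and a threshold of 0.05. The main edgeR tests, the interaction of genotype and subset among them, had no block for the animal. The average genotype effect used limma 3.58.1 voom with the animal as a random block (correlation 0.0729). DESeq2 1.42.0, RLE scaling, no filter, limma voom, limma on log2(TPM + 1), exon reads, 1 fit of all libraries, a neuronal covariate, replicate blocks and leaving out each library were tried. Replicates are libraries of separate animals, and intervals of counting error are not given. The fits were tested on simulated data. The members and lists were chosen with earlier results of these data known. Named genes were a panel of 26 plus members picked by size of change and p within each comparison, and others named were chosen after their values were seen.

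Same-numbered libraries of the 2 genotypes did not deviate together (correlations from -0.60 to 0.40) and were not paired. Libraries of different subsets from the same animal are paired by origin.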

Additional observations from a re-analysis of the deposited data

Results flagged for a closer look

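Within groups of 4 libraries, a member was set aside for a closer look when its highest or lowest library lay far from the others for the spread of the group. Chance does this in about 1 in 20 groups, and 108 values were examined. In Follicular_wt replicate 4 the high values were Cdk1 at 4.35 CPM, Ccnb1 at 3.28 CPM, Aurkb at 6.59 CPM, Mcm5 at 57.2 CPM, Pcna at 76.5 CPM and Rrm2 at 7.96 CPM, and the sum of the members was 787 CPM. In Follicular_1Mek2 replicate 2, Mcm2 at 81.0 CPM, Mcm5 at 107 CPM and the sum of 1267 CPM were high. Follicular_1Mek2 replicate 1 was low for E2f1 at 0.196 CPM and E2f2 at 68.6 CPM and high for Foxm1 at 16.5 CPM. E2f2 was high at 165 CPM in GC_1Mek2 replicate 3, and Ccna2 at 76.9 CPM in GC_wt replicate 3.

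The difference between genotypes varied with the subset for 6 members by the edgeR interaction test, which had no block for the animal. The adjusted p was 0.0032 for Tyms, 0.011 for Clspn, 0.0113 for Mcm5, 0.0136 for Kif23, 0.0393 for Nusap1 and 0.0437 for Ncaph. On exon reads it was 0.012 for Tyms, 0.010 for Clspn, 0.00961 for Mcm5 and 0.049 for Kif23, and it missed the threshold for Nusap1 at 0.233 and Ncaph at 0.0897.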

How the results depend on the processing

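Counts of members called are given for each comparison under the settings that moved them by over 1.5 times. Values in parentheses are all genes called in the same fit. Not all 46 members were tested in each: wt ABC minus Follicular had 40 in the main fit, 38 on exon reads and 27 with TPM. Genotype in ABC had 33 in the main fit. For genotype in Immature cells the main count of 17 (197) was 33 with RLE scaling (297), 33 without a filter (344) and 31 with limma voom (268). It was 2 on exon reads (50). It was 0 with all libraries in 1 fit (0), with the neuronal covariate (0), with limma on TPM (59) or with the Mek1ff library added as labelled (5). In ABC the count of 0 (0) was 18 with all libraries in 1 fit (5299) and 8 with DESeq2 (1445). In Plasma it was 4 with DESeq2 (1080) and 2 without a filter (454), and in Follicular 1 with the neuronal covariate (477). The average of 4 (1510) was 18 in edgeR (2852), 1 on exon reads (835) and 2 with RLE scaling (1317). For wt ABC minus Follicular the count of 8 (2903) was 17 in 1 fit (5957), 20 with DESeq2 (5342) and 2 on exon reads (2420). It was 13 with TPM (3841) and 5 without a filter (3281). Foxm1 there changed sign with TPM (log2 fold change -0.0336). For wt GC minus Immature the count of 38 (596) was 24 on exon reads (711), 24 without a filter (327) and 0 in 1 fit (49). In wt Immature minus Follicular it was 19 with TPM (350), and in MarginalZone minus Follicular 1 with DESeq2 (501). In Plasma minus Follicular it was 17 in 1 fit (2707), and in Plasma minus GC 24 in 1 fit (8531). The cause was not tested.

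Leaving out each library or animal in turn gave 2 to 40 for genotype in Immature, 1 to 10 for the average, 2 to 12 for the interaction, 0 to 22 for wt ABC minus Follicular, 45 to 46 for GC minus Follicular, 2 to 37 for GC minus Immature, 26 to 37 for Immature minus Follicular, 16 to 34 for Plasma minus Follicular and 31 to 40 for Plasma minus GC. It gave 0 throughout for genotype in GC, ABC, Follicular, MarginalZone and Plasma and for wt MarginalZone minus Follicular. The number of all genes called moved as well. For genotype in Immature, 32 genes passed in the fit with 2 members and 549 in the fit with 40. For wt ABC minus Follicular, 6427 genes passed in the fit with 22 members, and for the interaction 2032 in the fit with 12. Without both Follicular libraries that stood apart, a choice made after seeing the data, the Follicular count was 0.

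With the replicate block by number, which does not pair the samples, 42 members passed in Immature and 0 in the other 5 subsets. Of all genes, 1006 passed in Immature with that block. With the animal as the replicate block, 0 passed for ABC minus Follicular, 40 for GC minus Immature, 0 for MarginalZone minus Follicular and 39 for Plasma minus GC. All genes called there were 1206, 635, 116 and 1496. The animal block could not be fitted for wt Immature, GC or Plasma minus Follicular. Without the animal block the average called 5 members and 2210 of all genes. Under RLE the all-gene median became -0.34 for genotype in ABC, -0.22 for the average, 0.32 for wt ABC minus Follicular, -0.11 for GC minus Immature and 0.30 for Immature minus Follicular.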

Other observations

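The Immature library left out of the comparisons, labelled 1Mek2 but named Mek1ff, held 1725 CPM summed over the 46 members when scaled by its total alone. On the same scale the other Immature libraries labelled 1Mek2 held 5868 to 7305 CPM and the wt libraries 1074 to 3450 CPM. It was below every other library with the label for 45 members and within the range of wt for 43.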
